A study of Mus musculus with 12 samples.

Results

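The integrins, selectins and adhesion molecules of mouse lung were described across 12 RNA libraries. The members were chosen by gene symbol: every integrin α (Itga) and β (Itgb1 to Itgb8) chain, Icam, selectin and Jam gene, with Vcam1, Selplg, Cd44, Pecam1, Cdh5, Esam, F11r and Madcam1. This rule took 43 of the 17920 genes in the files, and all 43 matched RefSeq by gene ID. They comprise 18 integrin α chains, 8 integrin β chains, 6 immunoglobulin-family counter-receptors, and 6 junction molecules, the rest being selectins, Selplg and Cd44.

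All mice were male BALB/c, 6 to 8 weeks old, and no genotype is labelled. The study had 24 mice in 4 groups of 6, and lung tissue of 3 mice per group was sequenced after 14 days. The groups were a control, lipopolysaccharide (LPS, a bacterial outer-membrane component; 50 µL at 1 µg/µL), bovine lactoferrin (bLF, a milk iron-binding protein; 200 mg/kg each day) and both agents (LPS+bLF). What the control mice received, the route of LPS and its day are not given in the sources used here. The treatment label of the combined group reads LBS+BLF, and its titles read LPSBLF.

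Integrins are αβ pairs that bind matrix proteins or receptors on other cells. In leukocyte recruitment, selectins catch passing cells on sialylated glycans such as those carried by PSGL-1 (Selplg), and activated β2 and α4 integrins then hold them on ICAM and VCAM-1. The junction proteins VE-cadherin (Cdh5), PECAM-1, ESAM and the JAM family line the route between endothelial cells. The lung is rich in endothelium, and its capillaries are known to retain neutrophils with less use of selectins than other vascular beds.

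Levels are given as FPKM, in which a fragment count is divided by gene length and library size, and differences as log2 fold changes from edgeR's quasi-likelihood fit of the counts. Total counts per library ran from 16714327 to 17820645. LPS replicate 1 stood apart. Its median correlation with the other libraries was 0.942, and it had 3067 genes at 0 against 1499 to 1963 elsewhere. Of 34 tested members, it was the lowest of 12 libraries for 12 and the highest for 5. Control replicate 2 and LPS+bLF replicate 2 were each the lowest for 8. Marker lists of brown fat or heart muscle were high in control replicate 1, bLF replicate 1 and LPS+bLF replicate 2, and those of skeletal muscle and squamous epithelium in LPS+bLF replicate 3. Values without LPS replicate 1, or without these 5 libraries, are given beside many of the results. Leaving out the 5 keeps only replicate 1 of LPS+bLF, and replicates 2 and 3 of each other group. Comparisons that use LPS+bLF then rest on that library for this group. For LPS+bLF versus LPS, only effect sizes are then given. Counts printed for the bLF effect averaged over LPS and for the interaction have the same limit, and no conclusion is drawn from them. Scgb1a1, a club-cell secretory protein, took 23.81% of the counts of control replicate 2.

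Promoters are shown for 3 members the results turn on: Itgam and Itgax, neighbours on chromosome 7 with 11 kb between them, and Icam1, their counter-receptor, which was not higher. Each is the 250 bases before the start in RefSeq's promoter set, on the plus strand of GRCm38.p6, and the 3 were chosen with their values known. For Itgax this start lies downstream of the gene start, 128129526, from which the 11 kb was measured. Capitals in Itgam mark GAGGAA, a core of the myeloid factor PU.1, and in Icam1 they mark GGG and CC with any 5 bases between, a loose NF-κB-like pattern; both strands were searched.
Itgam, chr7:128062390-128062639: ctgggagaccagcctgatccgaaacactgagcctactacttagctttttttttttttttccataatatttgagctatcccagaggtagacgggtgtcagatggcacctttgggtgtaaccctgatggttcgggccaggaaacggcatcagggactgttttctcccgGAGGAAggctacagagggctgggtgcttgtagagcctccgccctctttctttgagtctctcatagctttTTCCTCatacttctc
Itgax, chr7:128129300-128129549: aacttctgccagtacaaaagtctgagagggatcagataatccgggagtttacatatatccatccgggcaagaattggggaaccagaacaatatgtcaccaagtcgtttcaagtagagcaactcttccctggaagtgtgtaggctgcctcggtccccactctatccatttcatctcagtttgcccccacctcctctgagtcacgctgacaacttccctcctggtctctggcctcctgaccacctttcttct
Icam1, chr9:21015690-21015939: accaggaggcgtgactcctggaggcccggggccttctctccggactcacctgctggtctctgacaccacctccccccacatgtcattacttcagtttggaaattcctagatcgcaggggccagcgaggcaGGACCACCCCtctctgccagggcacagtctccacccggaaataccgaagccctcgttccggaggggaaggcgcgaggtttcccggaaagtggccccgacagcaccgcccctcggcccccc
GAGGAA began 84 bases before the Itgam start on the plus strand and 15 bases before it on the minus strand, and the Itgax window held none. The Itgam window also held 2 matches of the NF-κB-like pattern, left in lower case, and the Itgax window 0. The letters occur in 23.3% of the 32851 promoters in the table and in 11 of 28 member promoters, which belong to 26 genes. The NF-κB-like pattern occurs in 45.8% of all promoters and in 18 of 28 member promoters. TATAAA, the third pattern searched, occurs in 12.4% of all and in 1 member promoter, that of Sele. In the 3 windows shown, 0 matches of different patterns overlapped. A match describes letters, not a binding site, and any site with other letters is left unmarked.

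The members spanned a wide range of levels, as the plot of levels shows. The most abundant were endothelial: Esam averaged 299.6 FPKM over the 12 libraries, Pecam1 197.9 and Icam2 141.3. Itga3, the α chain of a laminin receptor of epithelium, averaged 131.0 FPKM, and Icam1 averaged 104.0. Defining markers of the labelled tissue were present: the alveolar type 2 list, led by surfactant genes, summed to 46036 to 178119 FPKM, and all 14 genes of the endothelial list passed the filter. Of the 43 members, 34 passed the filter of at least 0.5 FPKM in at least 3 libraries. The other 9 were Icam5, Itga10, Itga11, Itgad, Itgae, Itgb8, Madcam1, Sele and Selp.

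**Figure D1:**
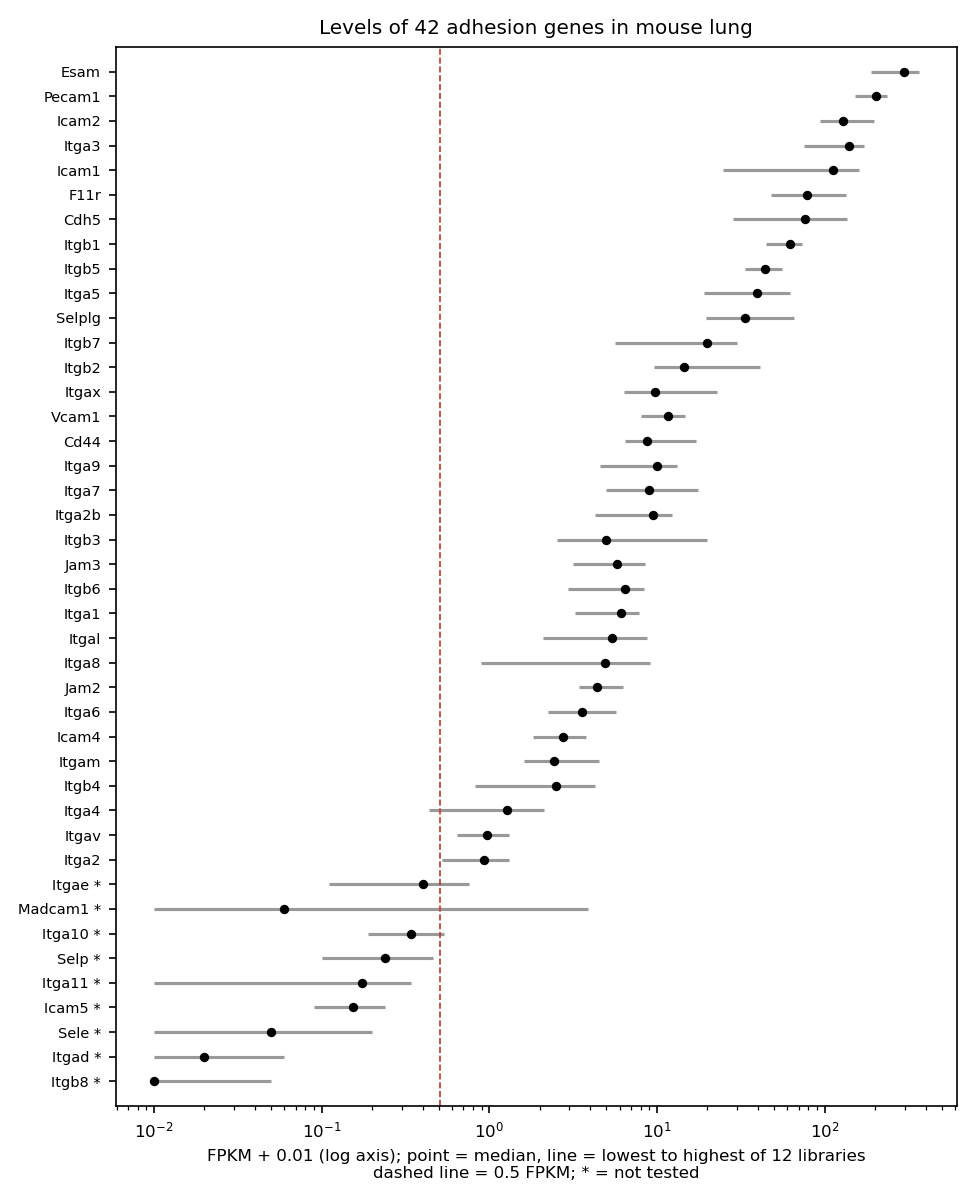
FPKM of 42 members on a log axis (0.01 added), with the median as a point and the range of 12 libraries as a line; asterisks mark the 9 members not tested. Esam, Pecam1 and Icam2 lead, and the ranges of Icam1, Cdh5, Itgb3 and Itga8 are stretched by LPS replicate 1.

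In LPS versus control, no member passed the adjusted threshold, and neither did any of the 13735 genes tested (edgeR, Benjamini-Hochberg, 0%). At an unadjusted p under 0.05, 8 of 34 members were higher with LPS: Itgam, Itgax, Itgb2, Selplg, Cd44, Itgb3, Itga7 and Itga6. That is 23.5% of the members, against 5.52% of all genes tested, and 0 members were lower, against 1.62%. The median log2 fold change was 0.14 over the members and −0.04 over all genes. Without LPS replicate 1, 7 were higher: Itgal and Itgb7 joined and Itga6, Itga7 and Itgb3 left (20.6%, against 3.83% of all genes; 0 lower, 1.17%). Without the 5 libraries that stood apart, 11 were higher (5.22% of all genes) and 1, Itga8, lower (3.23%), with 0 members and 0.0874% of genes past adjustment. In the averaged LPS effect 7 were higher, the 8 above less Itga6 (20.6%, against 4.92% of all genes), and 0 lower (1.77%). Counting unadjusted p-values was added after it was seen that no gene passed adjustment.

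**Figure D2:**
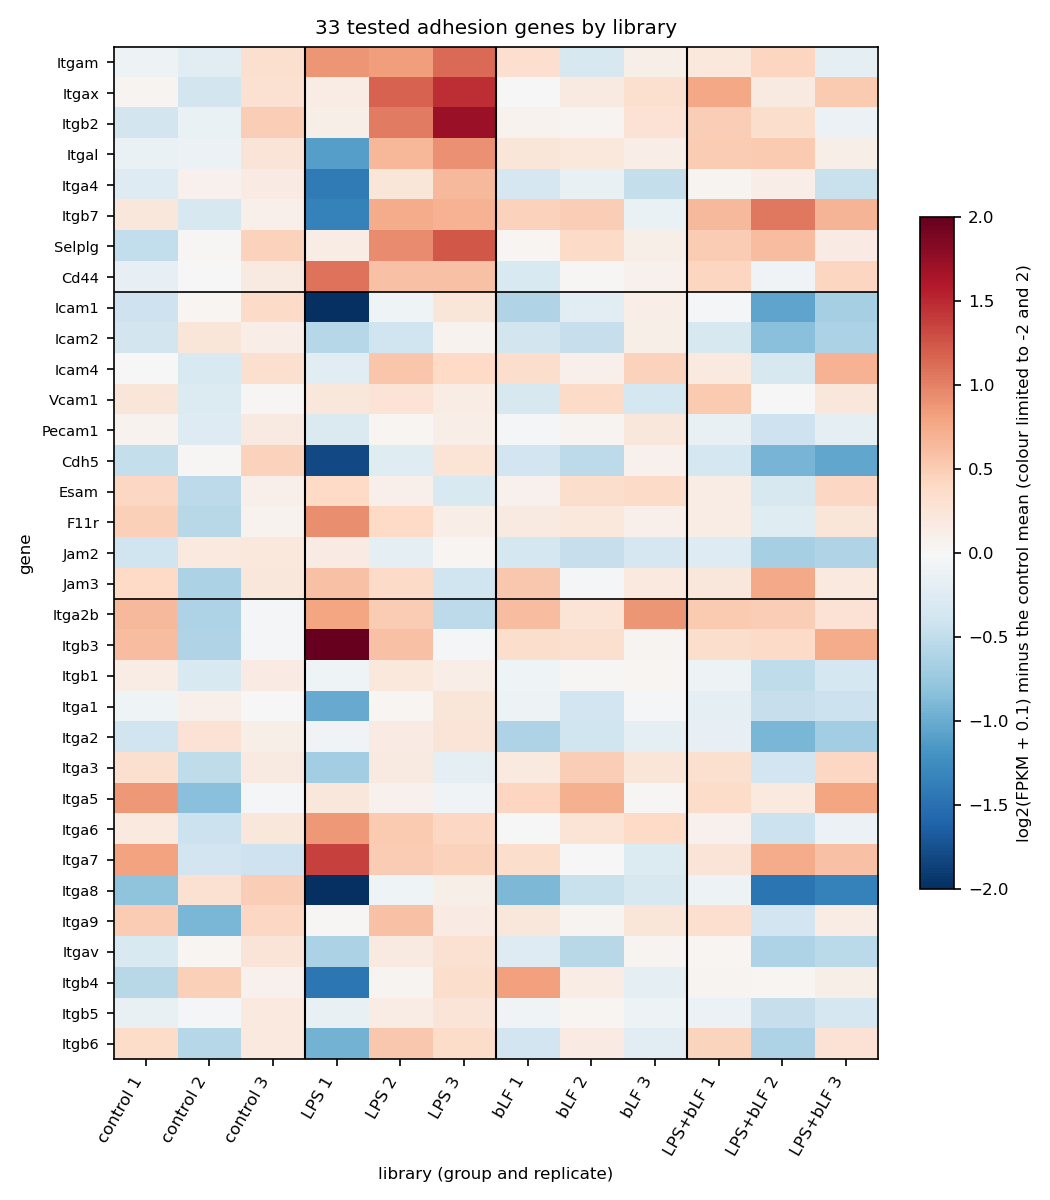
Log2(FPKM + 0.1) of 33 tested members in each library (columns, by group) minus the control mean, limited to −2 and 2; the horizontal lines part leukocyte genes, endothelial and junction genes, and other integrins. Red cells for Itgb2, Itgax and Selplg lie mostly in LPS replicates 2 and 3, whereas Itgam is red in all 3 LPS libraries, at 0.88, 0.84 and 1.13.

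The β2 integrins are the leukocyte-restricted pairs of Itgb2 with an α chain. Itgam (CD11b), the α chain of the complement receptor CR3 on neutrophils and monocytes, was listed at 1.87, 1.73 and 2.53 FPKM in the controls and 3.80, 3.68 and 4.53 with LPS. With bLF it was 2.57, 1.60 and 2.19, and with LPS+bLF 2.35, 2.75 and 1.77. Every LPS library lay above every other library, and the other 3 groups overlapped. Members with every LPS library above every control numbered 3, Itgam, Cd44 and Itga6 (8.82%, against 4% of all genes tested), and 0 had every one below (3.92%). LPS versus control gave a log2 fold change of 1.03 ± 0.24 (SE; edgeR adjusted p = 0.252), and LPS+bLF versus LPS gave −0.81 ± 0.24 (adjusted p = 0.689).

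Itgb2 (CD18), their shared β chain, was at 9.59, 11.3 and 17.6 FPKM in the controls and 13.6, 25.6 and 41.2 with LPS. It was at 13.1, 12.9 and 15.3 with bLF and 17.5, 16.0 and 11.5 with LPS+bLF. LPS replicates 2 and 3 were the highest of the 12, while LPS replicate 1 lay within the controls. The log2 fold change was 1.07 ± 0.33 for LPS versus control (SE; edgeR adjusted p = 0.509) and −0.81 ± 0.33 for LPS+bLF versus LPS (adjusted p = 0.689). Without LPS replicate 3, its highest library, they were 0.64 and −0.40.

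Itgax (CD11c), an α chain of dendritic cells and alveolar macrophages, was at 8.51, 6.32 and 10.1 FPKM in the controls and 9.11, 18.6 and 22.9 with LPS. With bLF it was at 8.10, 9.29 and 10.2, and with LPS+bLF at 14.1, 9.30 and 11.9. Again LPS replicates 2 and 3 stood highest and replicate 1 among the controls. LPS versus control gave 1.06 ± 0.25 (SE; edgeR adjusted p = 0.271). Without LPS replicate 1 it gave 1.30 ± 0.20 and passed adjustment (edgeR adjusted p = 0.0416), one of 25 genes (0.182%) called in that fit. LPS averaged over bLF, 6 libraries against 6, gave 0.71 ± 0.18 (edgeR adjusted p = 0.310), and without that library 0.84 (adjusted p = 0.0427). DESeq2 on all 12 libraries called Itgam (adjusted p = 0.011) and Itgax (adjusted p = 0.011) in LPS versus control, among 138 genes (1% of those tested). It called Itgax in the averaged effect, again among 138 (1%). On simulated data DESeq2 made 27 false calls, against 2 with edgeR. Those data were drawn with the spread fitted by edgeR and no library standing apart, so they do not rank the tools here.

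Itgal (CD11a), the α chain of LFA-1 on lymphocytes, was at 4.18, 4.25 and 5.51 FPKM in the controls and 2.09, 7.35 and 8.77 with LPS. It was between 5.08 and 5.45 with bLF and between 5.01 and 6.68 with LPS+bLF. LPS replicate 1 was the lowest library and LPS replicate 3 the highest. The log2 fold change of 0.38 ± 0.34 (SE; edgeR adjusted p = 0.706) became 0.75 ± 0.17 without LPS replicate 1 (adjusted p = 0.189). Itgad was listed at no more than 0.05 FPKM in any library and Itgae, the α chain of intraepithelial T cells, at 0.10 to 0.75.

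**Figure D3:**
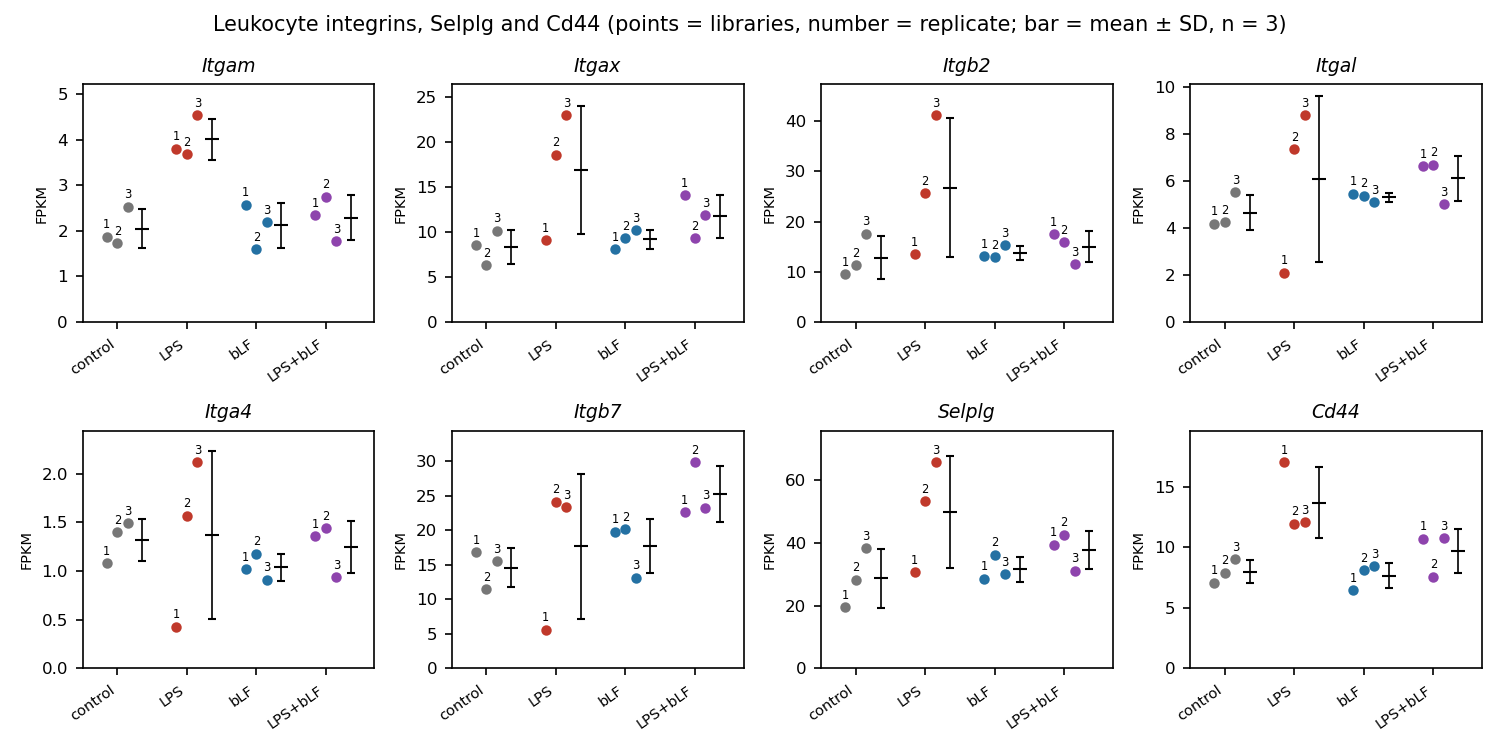
FPKM in each library by group (points numbered by replicate; bars, mean ± SD, n = 3) for 8 leukocyte members. LPS replicate 1 sits apart from replicates 2 and 3 for Itgax, Itgb2, Itgal, Itgb7 and Selplg, whereas for Itgam the 3 LPS libraries lie together at 3.68 to 4.53.

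The lymphocyte integrins of the α4 and β7 chains bind VCAM-1 and MAdCAM-1. Itgb7 was at 16.8, 11.5 and 15.5 FPKM in the controls, 5.59, 24.1 and 23.4 with LPS, 19.8, 20.2 and 13.1 with bLF, and 22.6, 29.9 and 23.2 with LPS+bLF. All LPS+bLF libraries lay above all bLF libraries, as they did for 2 members, Itgb3 and Itgb7 (5.88%, against 5.13% of all genes tested). They lay below all bLF libraries for 3 members, Itgb1, Itgb5 and Pecam1 (8.82%, against 6.87%). The B cell list summed to 235 to 609 FPKM with LPS+bLF and 79.3 to 209 with bLF, and the T cell list to 109 to 201 and 67.7 to 99.5. All 13 B cell genes (median log2 fold change 1.13) and all 9 tested T cell genes (median 0.79) were above 0 in LPS+bLF versus bLF; their part in the Itgb7 values was not tested. Its log2 fold change was 0.28 ± 0.38 in LPS versus control (SE; edgeR adjusted p = 0.766) and 0.66 ± 0.20 without LPS replicate 1 (adjusted p = 0.461). Itga4 was low, from 0.43 FPKM in LPS replicate 1 to 2.12 in LPS replicate 3, with control libraries at 1.08, 1.40 and 1.49. Its groups overlapped, and its fitted log2 fold change was 0.04 ± 0.40 (edgeR adjusted p = 0.973).

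Some leukocyte marker lists differed in direction across the LPS libraries, while the macrophage lists averaged above the control mean in all of them. The part of these lists in the results was not tested. The monocyte and interstitial macrophage list had 16 of 16 genes tested. On the log2 scale it averaged 0.37, 0.86 and 1.08 above the control mean in LPS replicates 1 to 3. Its summed level in these libraries was 744, 2464 and 4044 FPKM, against 1013 to 2688 in the controls. Its sums were 977 to 1871 with bLF and 1065 to 1937 with LPS+bLF. The NK and cytotoxic lymphocyte list averaged −1.27 in LPS replicate 1 and 1.30 and 1.21 in replicates 2 and 3, and its sums were 25.8 to 590.6 FPKM with LPS against 125.7 to 155.8 in the controls. The alveolar macrophage list averaged 0.68, 0.37 and 0.88 in LPS replicates 1 to 3 and summed to 546 to 759 FPKM, against 385 to 556 in the controls. The dendritic cell list averaged −0.48, 0.67 and 0.48 and summed to 55.2 to 104.3, against 38.9 to 70.2. The neutrophil list averaged 1.56 in LPS replicate 1 and −0.06 and 0.01 in the others, and the B cell list −1.10, then 0.08 and 0.04. Adgre1 (F4/80), a macrophage marker, was at 0.86, 1.21 and 1.78 FPKM in the controls and 3.23, 3.80 and 5.12 with LPS. It belongs to the monocyte and interstitial macrophage list, whose sum was lowest of the 12 libraries in LPS replicate 1. In bulk lung RNA, more cells of a type and more RNA per cell cannot be told apart.

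Selplg, the carrier of the main P-selectin ligand of leukocytes, was at 19.6, 28.2 and 38.1 FPKM in the controls and 30.5, 53.1 and 65.6 with LPS. It was at 28.5, 36.1 and 30.0 with bLF and 39.4, 42.5 and 31.1 with LPS+bLF. The control and LPS ranges overlapped through LPS replicate 1. Its log2 fold change was 0.80 ± 0.28 (SE; edgeR adjusted p = 0.600), and LPS+bLF versus LPS gave −0.39 ± 0.28 (adjusted p = 0.752).

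Cd44, a hyaluronan receptor that can also carry selectin ligands, was at 7.10, 7.92 and 9.02 FPKM in the controls and 17.1, 12.0 and 12.1 with LPS. With bLF it was at 6.46, 8.13 and 8.46, and with LPS+bLF at 10.7, 7.58 and 10.8. All 3 LPS libraries lay above every other library. The log2 fold change was 0.85 ± 0.25 in LPS versus control (SE; edgeR adjusted p = 0.456) and 0.52 ± 0.19 without LPS replicate 1, the library in which it was highest. It was 0.42 without the 5 libraries that stood apart.

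The endothelial selectins were near the detection limit: Sele was listed at 0 to 0.19 FPKM and Selp at 0.09 to 0.45, from at most 13 and 25 counts. Madcam1, the addressin of lymphoid and gut venules, was at 3.87 FPKM (66 counts) in LPS+bLF replicate 2 and at no more than 0.34 elsewhere. In that library the B cell list summed to 609 FPKM, against 47.0 to 259 in the other libraries, and the high-endothelial gene Glycam1 was at 70.9 FPKM against at most 0.44. The part of these markers in the Madcam1 value was not tested.

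No endothelial counter-receptor was past an unadjusted p of 0.05 in LPS versus control. Icam1, the ligand of LFA-1 and CR3, was at 92.0, 127.0 and 160.2 FPKM in the controls and 24.7, 116.3 and 146.3 with LPS. It was at 81.3, 106.8 and 134.8 with bLF and 121.4, 59.5 and 77.6 with LPS+bLF. LPS replicate 1 was the lowest library, and the groups overlapped. The log2 fold change was −0.42 ± 0.48 (SE; edgeR adjusted p = 0.739), and it was −0.00 ± 0.34 without LPS replicate 1.

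Icam2, a constitutive endothelial ligand of LFA-1, was at 129.4, 197.2 and 184.3 FPKM in the controls and 112.6, 127.5 and 175.0 with LPS. With bLF it was at 129.7, 121.6 and 181.7, and with LPS+bLF at 134.3, 93.9 and 107.9. The LPS and control ranges overlapped (log2 fold change −0.27 ± 0.25; SE; edgeR adjusted p = 0.710). Vcam1, the α4 integrin ligand, was at 12.1, 8.43 and 10.4 in the controls and 12.0, 12.4 and 11.3 with LPS, and its log2 fold change was 0.27 ± 0.21 (edgeR adjusted p = 0.692). Icam4, an erythroid adhesion molecule whose gene starts 0.617 kb from the end of Icam1, averaged 2.34 ± 0.52 (SD, n = 3) FPKM in the controls and 2.81 ± 0.75 with LPS. Icam5 was listed at no more than 0.23 FPKM.

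Among the junction molecules, Cdh5 (VE-cadherin) was at 70.9, 100.8 and 135.8 FPKM in the controls, 28.3, 83.9 and 119.4 with LPS, 76.1, 68.5 and 105.2 with bLF, and 77.6, 51.7 and 48.0 with LPS+bLF. Its lowest value was again LPS replicate 1. The log2 fold change was −0.42 ± 0.41 in LPS versus control (SE; edgeR adjusted p = 0.712) and −0.07 ± 0.33 without that library. Pecam1 was steadier between LPS and control, at 165.6 to 222.5 FPKM with LPS and 169.7 to 231.2 in the controls, with a log2 fold change of 0.01 ± 0.16 (edgeR adjusted p = 0.977). It was at 198.4 to 237.1 with bLF and 151.8 to 183.7 with LPS+bLF. The endothelial marker list summed to 2600 to 3000 FPKM with LPS and 2815 to 3613 in the controls; its part in these values was not tested. Kdr (VEGF receptor 2), a gene of that list, was at 6.17 FPKM in LPS replicate 1 and at 19.0 to 36.4 in the other libraries. The whole list summed to 3000 in LPS replicate 1, and it averaged −0.22, −0.10 and −0.11 on the log2 scale in LPS replicates 1 to 3.

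Esam, F11r (JAM-A) and Jam3 had overlapping LPS and control ranges. F11r averaged 72.9 ± 24.8 FPKM (SD, n = 3) in the controls and 100.6 ± 29.5 with LPS, a log2 fold change of 0.59 ± 0.29 (SE; edgeR adjusted p = 0.684). It was 0.18 ± 0.22 without LPS replicate 1 and 0.40 without the 5 libraries that stood apart. Jam2, a ligand of the α4β1 integrin, was at 4.11, 6.19 and 6.26 FPKM in the controls, 6.08, 4.73 and 5.57 with LPS, 4.22, 3.92 and 4.28 with bLF and 4.50, 3.40 and 3.53 with LPS+bLF. Every LPS+bLF library was below every LPS library. LPS+bLF versus LPS gave −0.58 ± 0.24 (SE; edgeR adjusted p = 0.689), and bLF averaged over LPS gave −0.49 ± 0.17 (adjusted p = 0.953). They were −0.38 ± 0.23 and −0.40 without LPS replicate 1, and −0.15 and −0.38 without the 5 libraries.

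**Figure D4:**
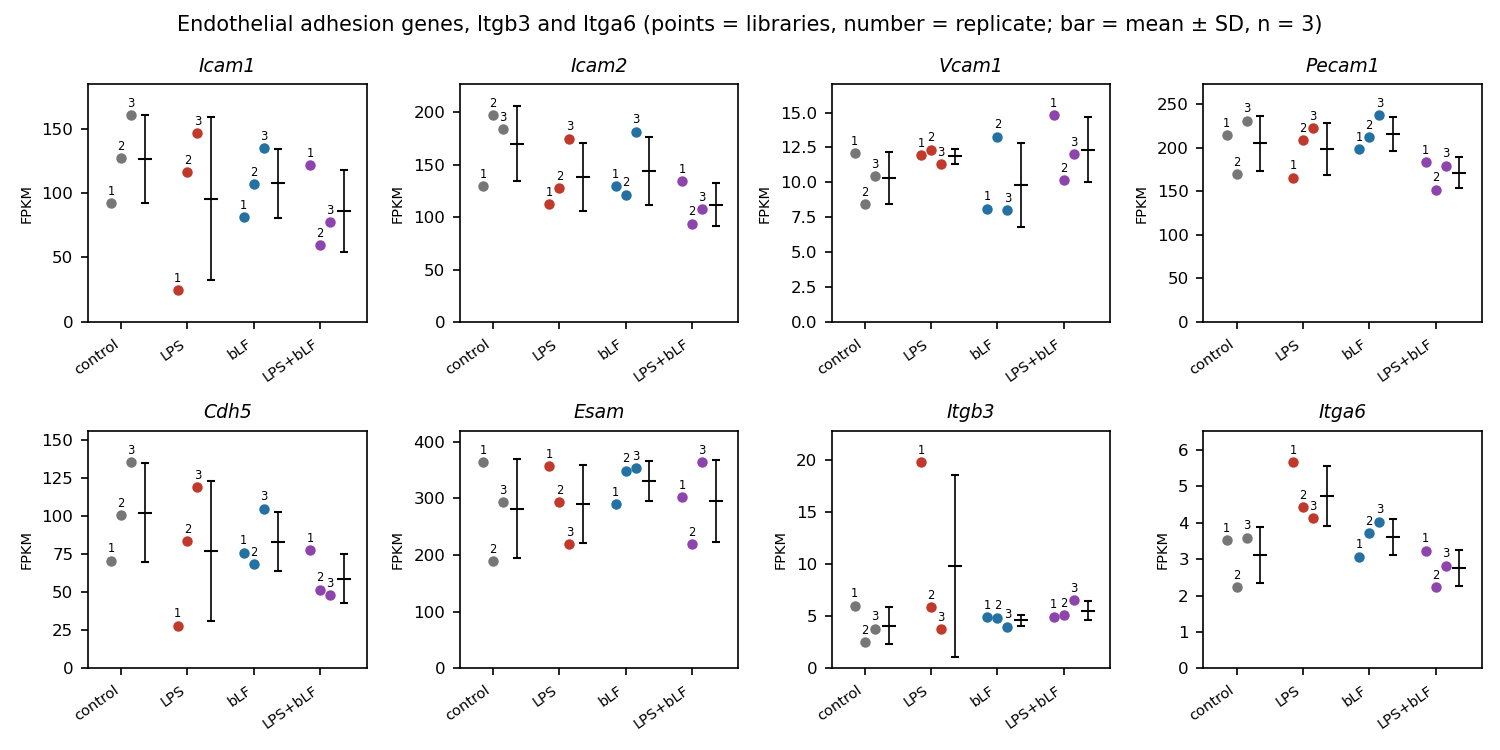
FPKM in each library by group (points numbered by replicate; bars, mean ± SD, n = 3) for 6 endothelial members, Itgb3 and Itga6. The control and LPS ranges overlap for the 6 endothelial genes and Itgb3; for Itga6 the LPS libraries, at 4.12 to 5.67, lie above all others.

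Itga6, an α chain of laminin receptors, was at 3.52, 2.24 and 3.59 FPKM in the controls and 5.67, 4.43 and 4.12 with LPS. It was at 3.07, 3.71 and 4.03 with bLF and 3.23, 2.23 and 2.82 with LPS+bLF. All LPS libraries were above all others. LPS versus control gave 0.68 ± 0.23 (SE; edgeR adjusted p = 0.600), LPS+bLF versus LPS gave −0.80 ± 0.24 (adjusted p = 0.689), and the interaction gave −1.03 ± 0.33 (adjusted p = 1). These were 0.40, −0.52 and −0.75 without LPS replicate 1, and 0.46, −0.33 and −0.75 without the 5 libraries.

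The platelet integrin chain Itgb3, which pairs with Itga2b and Itgav, was at 6.01, 2.52 and 3.81 FPKM in the controls and 19.8, 5.89 and 3.77 with LPS. It was at 4.95, 4.86 and 4.02 with bLF and 4.96, 5.10 and 6.57 with LPS+bLF. The log2 fold change of 1.45 ± 0.57 (SE; edgeR adjusted p = 0.655) came to 0.20 ± 0.28 without LPS replicate 1 and 0.53 without the 5 libraries. Its partner Itga2b was at 10.4, 4.28 and 6.56 in the controls and 11.5, 9.48 and 4.60 with LPS. The platelet and megakaryocyte list averaged −0.44, 0.14 and −0.30 on the log2 scale in LPS replicates 1 to 3; its part in these values was not tested.

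Itga7, a laminin receptor chain known from muscle, was at 11.8, 5.09 and 4.98 FPKM in the controls and 17.5, 9.53 and 9.25 with LPS. It was at 8.57, 6.74 and 5.52 with bLF and 8.01, 11.3 and 10.1 with LPS+bLF. Control replicate 1, with high brown fat markers, overlapped the LPS libraries, and the part of these markers in the Itga7 values was not tested. LPS versus control gave 0.86 ± 0.39 (SE; edgeR adjusted p = 0.684), and 0.34 ± 0.33 without LPS replicate 1. It was 1.34 without control replicate 1 and 0.81 without all 5 libraries. Itga8, of smooth muscle and mesenchyme, was at 3.65, 7.96 and 9.06 in the controls and 0.88, 6.04 and 6.96 with LPS, with groups that overlapped. Its log2 fold change of −0.60 was −0.13 without LPS replicate 1.

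The remaining matrix integrins showed smaller differences with LPS. Itgb1, the common β chain, averaged 64.5 ± 11.2 FPKM (SD, n = 3) in the controls and 67.9 ± 6.86 with LPS, and Itgb5, a vitronectin receptor chain, 46.7 ± 5.64 and 49.8 ± 7.10. The TGF-β-activating chains Itgav and Itgb6 averaged 1.05 ± 0.22 and 5.93 ± 1.87 in the controls and 1.04 ± 0.36 and 6.22 ± 2.89 with LPS. Itgb4, the hemidesmosome chain, averaged 2.49 ± 0.88 and 2.12 ± 1.18. The collagen receptor chains Itga1 and Itga2 averaged 6.58 ± 0.43 and 1.07 ± 0.27 in the controls and 5.93 ± 2.40 and 1.16 ± 0.14 with LPS. The fibronectin receptor chain Itga5 averaged 38.3 ± 22.2 and 36.3 ± 3.60, and Itga9 9.48 ± 4.27 and 10.5 ± 2.29. Itga10 and Itga11 were listed at no more than 0.53 and 0.33 FPKM, and Itgb8 at 0.04 or less.

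In LPS+bLF versus LPS no gene passed adjustment either (edgeR, Benjamini-Hochberg, smallest adjusted p = 0.689; 0%). At an unadjusted p under 0.05, 7 of 34 members were lower in LPS+bLF: Itgam, Itgb2, Itga6, Itga2, Itgb1, Itgb5 and Jam2 (20.6%, against 3.65% of all genes), and 0 were higher (3.27%). The median was −0.24 over the members and −0.02 over all genes. Without LPS replicate 1 alone, 8 were lower at an unadjusted p under 0.05 (4.16% of all genes) and 0 higher (4.74%). Without the 5 libraries that stood apart, LPS+bLF keeps replicate 1 only. The median was then −0.151 over the members and −0.007 over all genes. This comparison shares the LPS libraries with LPS versus control.

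Itgb1 was at 60.4, 73.8 and 69.7 FPKM with LPS and 59.4, 44.8 and 49.7 with LPS+bLF, with no overlap, and gave −0.41 ± 0.15 (SE; edgeR adjusted p = 0.689). Itgb5 was at 41.9, 51.6 and 55.8 and then 42.7, 33.7 and 36.6, overlapping through LPS replicate 1, and gave −0.42 ± 0.15 (adjusted p = 0.689). Itga2 was at 1.00, 1.19 and 1.28 with LPS and 0.93, 0.51 and 0.61 with LPS+bLF, and gave −0.76 ± 0.29 (adjusted p = 0.689). These log2 fold changes were −0.38, −0.43 and −0.76 without LPS replicate 1, and −0.22, −0.31 and −0.36 without the 5 libraries. In all, 6 members had every LPS+bLF library below every LPS library (17.6%, against 4.91% of all genes): Cd44, Itga2, Itga6, Itgam, Itgb1 and Jam2. None had every LPS+bLF library above (4.15%).

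With bLF alone, 0 of 34 members were past an unadjusted p of 0.05 in either direction (0.714% of all genes were higher and 0.663% lower). Leaving out the 5 libraries, 4 were higher and 4 lower (4.99% and 5.63% of all genes). With all libraries the smallest p belonged to Jam2 (log2 fold change −0.41 ± 0.24; SE; edgeR adjusted p = 1). In LPS+bLF versus bLF, again 0 members were past it (1.65% higher and 1.02% lower over all genes). Without LPS replicate 1, which enters it only through the shared spread and the scaling, 1 was higher, Itgb7 (3.66%), and 0 lower (2.53%). That comparison shares no library with LPS versus control, and the members' log2 fold changes had the same sign in both for 21 of 34 (61.8%, against 60.3% of all genes). Itgam gave 1.03 in LPS versus control and 0.14 in LPS+bLF versus bLF, and the test of the difference between them, the interaction, gave −0.89 ± 0.34 (SE; edgeR adjusted p = 1). At an unadjusted p under 0.05 the interaction was lower for Itga6 and Itgam (5.88%, against 1.54% of all genes) and higher for 0 (1.26%). It was lower for 4 without LPS replicate 1, Itgax and Itgb2 as well (1.76% of all genes), and higher for 0 (1.63%). Leaving out the 5 libraries, it was lower for Itga6 and Itgax (1.33%) and higher for 1, Itga8 (0.794%).

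bLF averaged over LPS was lower for 3 members, Itga2, Itgb5 and Jam2 (8.82%, against 2.4% of all genes), and higher for 0 (2.34%). Without LPS replicate 1 it was lower for 8 (23.5%, against 6.38% of all genes) and higher for 1, Itga2b (5.01%). Leaving out the 5 libraries, it was lower for 5 (3.98%) and higher for 4, Esam, Itga2b, Itga3 and Itga5 (3.29%). Itga2 and Jam2 were among the lower members with and without LPS replicate 1, in fits that share all other libraries. The counts without the 5 libraries, here and for the interaction, rest on replicate 1 alone for LPS+bLF. No conclusion is drawn from them.

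**Figure D5:**
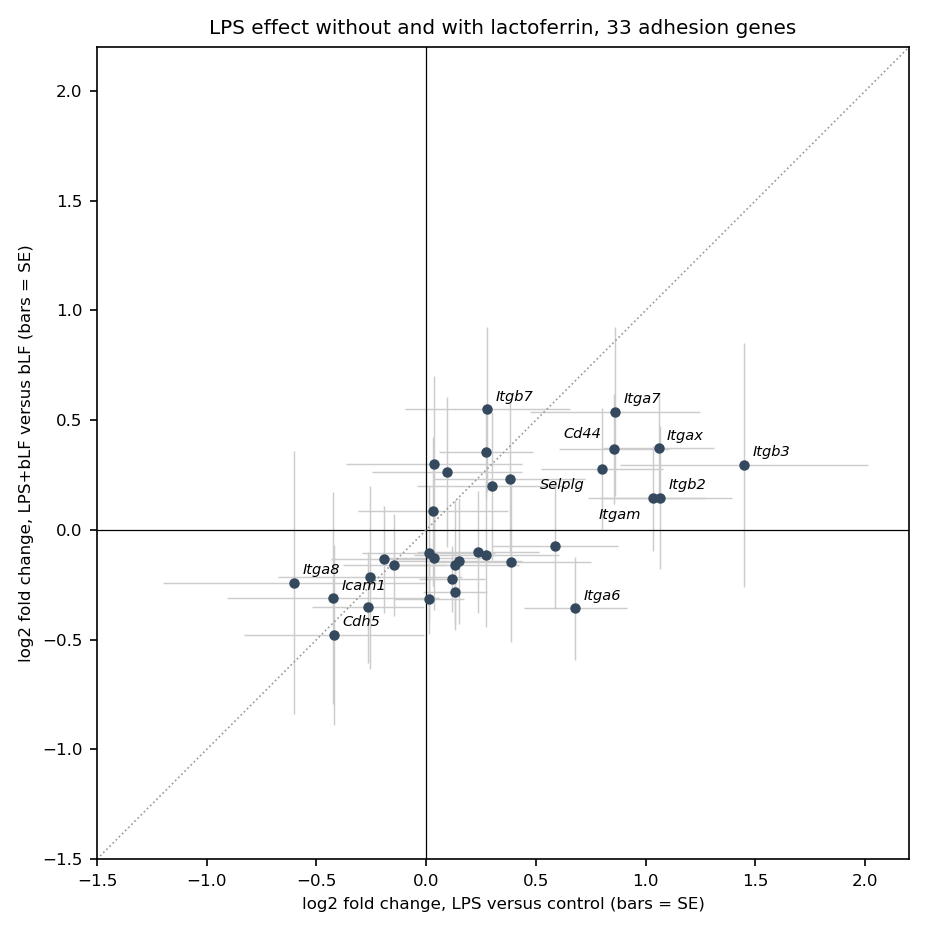
Log2 fold change of 33 tested members in LPS versus control (x axis) and LPS+bLF versus bLF (y axis), with SE bars; the dotted line marks equal values. Itgam, Itgb2, Itgax, Cd44 and Selplg lie right of the line, with 0.80 to 1.07 on the x axis, and Itga6 lies below 0 on the y axis.

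The genes that work with these receptors were described from 4 lists, with 0 of their genes called in any comparison (edgeR). Integrin activators and adaptors had 26 tested genes, a median of −0.10 in LPS versus control; 6 were higher and 1 lower below an unadjusted p of 0.05. Over all genes tested, 5.52% were higher and 1.62% lower in that comparison, with a median of −0.04. Among them Fyb, an adaptor of integrin activation in T cells and myeloid cells, gave 0.88 ± 0.26 (SE; adjusted p = 0.480), and Parvg, a leukocyte parvin, 0.79 ± 0.25 (adjusted p = 0.518). Integrin matrix ligands had 27 tested genes and a median of 0.32, with 8 higher and 0 lower. Col3a1, a fibrillar collagen, gave 0.86 ± 0.24 (adjusted p = 0.404) and Tnc, tenascin C, 1.01 ± 0.29 (adjusted p = 0.432).

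In LPS+bLF versus LPS, 10 of the 27 matrix ligands were lower and 1 higher at an unadjusted p under 0.05, with a median of −0.44. Over all genes tested, 3.65% were lower and 3.27% higher, with a median of −0.02. Col1a2, a type I collagen chain, gave −0.95 ± 0.26 (SE; edgeR adjusted p = 0.689) and Col3a1 −0.79 ± 0.24; without LPS replicate 1 they gave −0.58 and −0.64. Selectin ligand carriers and enzymes had 17 of 20 genes tested and a median of 0.03 in LPS versus control. Of these, 1 was higher at an unadjusted p under 0.05, against 5.52% of all genes tested. It was Fut7, the fucosyltransferase that completes sialyl Lewis x on leukocytes, which gave 1.27 ± 0.38 (SE; edgeR adjusted p = 0.480). Fut7 also gave 1.04 ± 0.38 in LPS+bLF versus bLF (adjusted p = 1). Other junction genes had 23 tested and a median of 0.01 in LPS versus control, with 1 higher, against the same 5.52%. It was Tjp3, a tight-junction scaffold (0.63 ± 0.26, SE, edgeR adjusted p = 0.665, and 0.29 without LPS replicate 1).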

How the data were processed

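Lung polyA RNA of 12 mice was sequenced, 1 library per mouse. Per the submitters' processing notes, HISAT2 2.1.0, RSEM 1.2.8 and mm10 are named without saying what each did; annotation, filters and strand are not given in the sources used here. Per the file headers, the authors deposited a count and an FPKM per gene. The counts as deposited were treated as estimated counts and rounded, because 4.12 to 5.91% of values were not whole.

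A gene was tested (13735 were) if 3 or more of the 12 libraries reached 0.5 FPKM. All libraries entered 1 edgeR 4.0.16 quasi-likelihood fit of 4 group means (TMM scaling, 8 residual degrees of freedom; two-sided; Benjamini-Hochberg over all genes, called under 0.05). The SE is the log2 fold change over the root of F. The p-values measure the spread between these mice. LPS and bLF effects averaged over the other agent, and their interaction, came from the same fit. Alternatives were other scalings and filters, DESeq2, limma on log2(FPKM + 1) and log2(FPKM + 0.1), a robust fit, only the groups compared, a replicate block, and leaving out each library; leaving out 5 libraries together, and the unadjusted-p counts, were added after seeing the data.

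The members, lists and tests were chosen with earlier results of these data known. Members named in full were those with the 8 smallest p-values in 4 comparisons, and a set of 26; of each pathway list, the 2 smallest p-values. A member is counted but not reported here, and some are given more briefly, by group mean or range. Promoters are RefSeq's, GRCm38.p6; 3 patterns were searched in the windows, and another, added after its letters were seen in the Icam1 promoter, was dropped and is not reported. Tested on simulated data for LPS versus control (13735 genes), edgeR recovered 18% of genes changed by 1 on the log2 scale and 80% of those changed by 2, with 2 false calls. DESeq2 on the same simulated data recovered 24% and 85%, with 27 false calls. The simulated counts were drawn with the spread fitted by edgeR.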

Additional observations from a re-analysis of the deposited data

How the results depend on the processing

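With 3 mice per group and a common coefficient of variation of 0.352 (0.292 without LPS replicate 1), differences of 2-fold were often not detectable. Members called numbered 2 with DESeq2 in LPS versus control and 1 in LPS averaged over bLF, against 0 with edgeR, and ranged from 0 to 1 in both when 1 library was left out (Itgax, without LPS replicate 1). Leaving out 1 library, the unadjusted-p counts ranged from 5, without control replicate 2, to 9 higher in LPS versus control. In LPS+bLF versus LPS they ranged from 3 to 8 lower and 0 to 1 higher. In the averaged LPS effect they ranged from 5 to 7 higher and 0 to 1 lower. They ranged from 0 to 1 higher in LPS+bLF versus bLF, 0 to 2 higher and 0 to 2 lower in bLF versus control, 2 to 8 lower and 0 to 1 higher in the averaged bLF effect, and 1 to 4 lower in the interaction. Counts without the 5 libraries that stood apart are given above for LPS versus control, bLF versus control, the averaged bLF effect and the interaction. In the averaged bLF effect and the interaction, LPS+bLF keeps replicate 1 only, so no conclusion is drawn from those counts. For LPS+bLF versus LPS, only effect sizes are given for the same reason. A mean of at least 5 FPKM, which leaves fewer members, gave 4 lower in LPS+bLF versus LPS and 0 in the interaction. No filter gave 1 higher in LPS+bLF versus LPS and 1 in the averaged bLF effect. DESeq2 gave 2 lower in LPS+bLF versus bLF, and 1 higher and 5 lower in the averaged bLF effect; only the groups compared gave 2 higher in LPS+bLF versus bLF.

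Same-numbered replicates did not pair: 5 of 18 correlations exceeded 0.1, and 4 of 12 libraries correlated best with their own number. With the replicate block, members called stayed at 0 in LPS versus control; it turned the log2 fold change of Itga4 to −0.025 there, and in LPS+bLF versus LPS it turned Icam1 to 0.12, Itga4 to 0.026 and Itga8 to 0.048.

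The cause of the other sign changes was not tested. In LPS versus control, upper-quartile factors gave −0.018 for Itgav, −0.025 for Jam2 and −0.02 for Pecam1. The filter at 5 FPKM gave −0.02 for Pecam1. Limma with 1 added gave −0.039 for Itga4, −0.017 for Itgav, −0.00 for Jam2 and −0.043 for Pecam1; with 0.1 added it gave −0.17, −0.05 and −0.043 for Itga4, Itgav and Pecam1, and −0.01 for Itgb6. Without the 5 libraries Itga1 was 0.015, Itga2 −0.078, Itga3 0.057 and Jam2 −0.35. In LPS+bLF versus LPS, limma gave 0.025 for Esam with both values added, 0.13 and 0.14 for Icam1, and 0.084 for Itga4 with 0.1 added. Itgb6 was −0.008 with upper-quartile factors and −0.02 with the stricter filter. Without the 5 libraries Esam was 0.29, Itgal −0.24, Itgb3 0.088, Itgb4 −0.13 and Itgb7 −0.024.

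Leaving out 1 library, the values that crossed 0 in LPS versus control ranged from −0.17 to 0.36 for Esam, −0.39 to 0.085 for Itga1, −0.073 to 0.39 for Itga2, −0.049 to 0.74 for Itga2b, −0.44 to 0.42 for Itga4, −0.25 to 0.54 for Itga5, −0.052 to 0.44 for Itga9, −0.16 to 0.20 for Itgav, −0.63 to 0.11 for Itgb4, −0.10 to 0.38 for Itgb6, −0.16 to 0.21 for Jam2, −0.055 to 0.58 for Jam3 and −0.047 to 0.082 for Pecam1. In LPS+bLF versus LPS they ranged from −0.69 to 0.10 for Cdh5, −0.25 to 0.31 for Esam, −0.52 to 0.34 for Icam1, −0.31 to 0.17 for Icam4, −0.41 to 0.036 for Itga1, −0.31 to 0.48 for Itga2b, −0.47 to 0.37 for Itga4, −0.59 to 0.17 for Itga7, −0.78 to 0.18 for Itga8, −0.30 to 0.41 for Itgal, −1.40 to 0.31 for Itgb3, −0.051 to 0.63 for Itgb4, −0.26 to 0.27 for Itgb6, −0.16 to 0.50 for Jam3 and −0.088 to 0.16 for Vcam1.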
